A study of Mus musculus with 4 samples.

Results

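Insulin-like growth factor (IGF) receptors and binding proteins were followed in cardiac progenitor cells with and without Isl1, a LIM-homeodomain factor that marks progenitors of the second heart field. The set held 10 genes of the 20701 gene symbols measured: the ligand Igf1, the receptors Igf1r and Insr, the adaptor Irs1, and the binding proteins Igfbp2, Igfbp3, Igfbp4, Igfbp5, Igfbp6 and Igfbp7. Members were taken by symbol, and where a symbol had several transcript entries, the one with the most counts over the 4 libraries was used. RNA-Seq was performed on 4 libraries at day 5 of directed differentiation, 2 labelled control and 2 labelled Isl1_KO. All cells derived from E14 mouse embryonic stem cells carrying the Tg(Nkx2-5-EmGFP) reporter, in which green fluorescent protein marks cells with Nkx2-5 promoter activity, and the fluorescent cells were sorted before RNA was extracted. The Isl1_KO cells were Isl1-/- clones made by CRISPR/Cas9 editing with a pair of guides, the control cells carried the same reporter without the deletion, and each group comprised 2 clones, so that a clone and its library cannot be told apart. The stem cells had been kept on mouse embryonic fibroblast feeders before differentiation.

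IGF1 and IGF2 are secreted ligands that activate the tyrosine kinase receptor IGF1R and, with lower affinity for IGF1, the insulin receptor INSR. Activated receptors phosphorylate adaptors such as IRS1, which recruit PI3-kinase and lead to AKT and mTOR activity and thereby to growth, survival and protein synthesis. Most extracellular IGF is held by IGF-binding proteins, which keep it from the receptor, extend its lifetime or, after cleavage by proteases such as pappalysin, release it. In the embryonic heart, IGF2 from the epicardium is a known mitogen of cardiomyocytes.

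Sequencing depth over the kept entries was 8821517 and 9147425 counts in the control pair and 13186109 and 11388333 counts in the Isl1_KO pair. Isl1 itself was measured at 35.1 and 35.7 CPM (counts scaled to library size after TMM normalization) in control and at 1.31 and 2.08 CPM in Isl1_KO (log2 fold change -4.39, SE 0.212, adjusted p = 0.00277), so every library matched its label. Nkx2-5, whose reporter was sorted on, was 21.1 and 19.8 CPM in control against 4.77 and 4.34 CPM in Isl1_KO (log2 fold change -2.16, SE 0.154, adjusted p = 0.00703, and 0.134 or 0.108 without control 1 or control 2). The control libraries were close to each other, with a median absolute log2 difference of 0.0818 over all tested genes, whereas the Isl1_KO libraries differed by a median of 0.187. Each Isl1_KO library is therefore also given apart. Adjusted p-values are from the quasi-likelihood test of edgeR, adjusted by Benjamini-Hochberg over all 12715 genes tested. The test weighs a group difference against the spread between these libraries, estimated with information from all tested genes. With so few clones it cannot speak for the spread among clones at large.

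Among the members, Igfbp5 passed the adjusted threshold of 0.05, and it fell 3.69-fold in Isl1_KO. Its gene, at chr1:72904506-72921458 on the minus strand of the mm9 assembly, lies tail to tail with Igfbp2 at chr1:72871077-72899048 on the plus strand, with 5.46 kb between their ends. Igfbp2 took values 0.16 higher on the log2 scale and did not pass the test. The promoter windows of this gene pair are shown because the neighbours were measured on opposite sides of control. Each window runs from 250 bases before to 50 bases after an annotated start (RefSeq, GRCm38.p6, written 5′ to 3′ on the strand of the gene), with CG dinucleotides in capitals. The Igfbp5 window lies at chr1:72874816-72875115 on the minus strand and the Igfbp2 window, 1 of 2 annotated for that gene, at chr1:72824230-72824529 on the plus strand.
Igfbp5: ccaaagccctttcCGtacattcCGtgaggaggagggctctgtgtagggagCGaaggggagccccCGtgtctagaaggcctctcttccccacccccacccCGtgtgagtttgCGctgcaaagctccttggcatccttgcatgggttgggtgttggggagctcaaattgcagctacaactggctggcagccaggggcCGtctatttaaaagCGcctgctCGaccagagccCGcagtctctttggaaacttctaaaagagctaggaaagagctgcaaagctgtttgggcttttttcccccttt
Igfbp2: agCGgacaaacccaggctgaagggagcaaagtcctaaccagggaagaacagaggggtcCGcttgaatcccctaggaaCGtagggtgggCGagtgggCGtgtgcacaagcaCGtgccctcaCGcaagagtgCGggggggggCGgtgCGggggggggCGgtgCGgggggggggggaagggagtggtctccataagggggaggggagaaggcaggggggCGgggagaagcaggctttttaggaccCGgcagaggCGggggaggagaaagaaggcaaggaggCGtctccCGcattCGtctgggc
The Igfbp5 window had a GC content of 56.3% and 10 CG dinucleotides, and the Igfbp2 window had 67.0% and 18, against a median of 7 CG dinucleotides over 32544 promoter windows of the same length. Windows were found for 9 of the 10 members, 10 windows in all. The core letters read by many homeodomain proteins, TAAT (or ATTA on the other strand), occurred in 0 of the 10 windows and in 57.9% of all promoter windows, which says only that these letters are not in these stretches. The TATA-box letters TATAAA (or TTTATA) occurred in 2 of the 10, those of Igfbp4 and Igfbp6, and in 13.6% of all.

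Levels per transcript length, in the deposited RPKM unit (reads scaled by transcript length and library total), put Igfbp4, Igfbp5 and Igfbp2 above both receptors and the ligand, with the other binding proteins interspersed among them. In control the order of mean levels was Igfbp4 (169 RPKM), Igfbp5 (70.1), Igfbp2 (37.4), Igf1r (17.3), Igfbp3 (8.29), Insr (4.08), Irs1 (2.87), Igfbp7 (2.37), Igf1 (0.715) and Igfbp6 (0.320). The libraries of neighbours in this order did not overlap except those of Irs1 (2.93 and 2.80 RPKM) and Igfbp7 (1.90 and 2.83 RPKM). In Isl1_KO, Igfbp2 (42.4 RPKM) stood above Igfbp5 (19.2 RPKM), and Igfbp3, at 4.44 and 14.08 RPKM, could not be ranked against Igf1r at 13.92 and 12.16 RPKM.

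**Figure D1:**
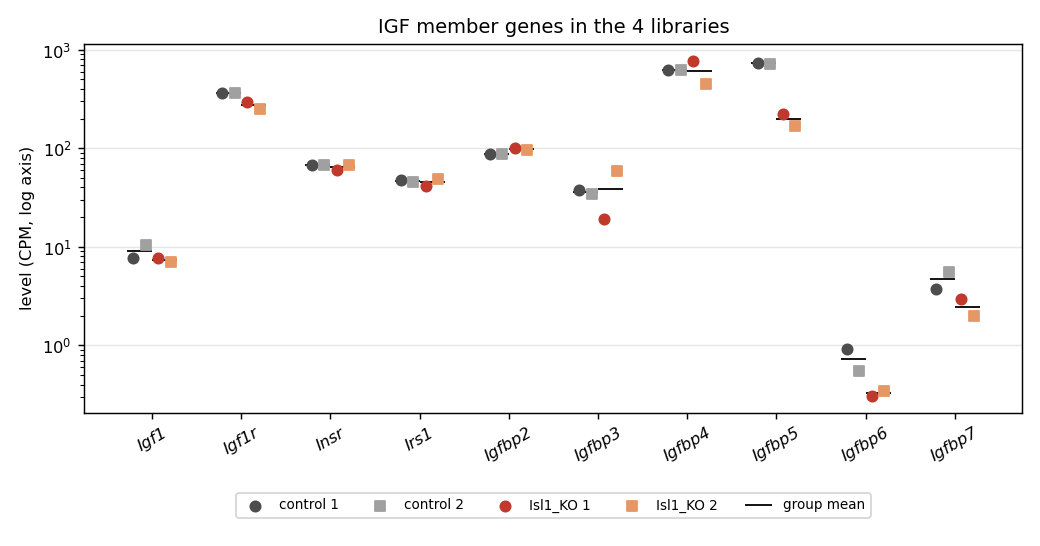
Level of each member in CPM on a log axis, with 1 point per library and a line at each group mean. The Igfbp5 points of the Isl1_KO pair (224 and 170) lie well below those of the control pair (731 and 723), and the Igfbp3 points of the Isl1_KO pair (19.2 and 58.6) lie on either side of control. Heights are not scaled by length, so they compare libraries and not genes.

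Igf1, the ligand member (mm9 chr10:87321010-87399792, plus strand), was scarce in all libraries. Control gave 68 and 95 counts and Isl1_KO gave 99 and 81 counts, or 7.72 and 10.4 CPM against 7.61 and 7.03 CPM. Both Isl1_KO libraries lay below both control libraries by less than the control libraries differed (log2 fold change -0.31, SE 0.210, adjusted p = 0.429). The 5 Igf1 entries gave nearly the same counts, 62 to 68 in control 1 and 98 to 99 in Isl1_KO 1. The longest entry gave a similar log2 fold change of -0.28. The order of close libraries did depend on the entry. The longest gave 0.55 RPKM in control 1 and 0.56 RPKM in Isl1_KO 1, against 0.61 and 0.60 RPKM for the entry kept.

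Igf1r, the principal receptor for both IGFs (mm9 chr7:75097713-75371484, plus strand), was at 365 and 367 CPM in control and at 296 and 248 CPM in Isl1_KO. The groups did not overlap, and each Isl1_KO library was lower than control, by 0.31 and 0.56 on the log2 scale. The fitted log2 fold change was -0.43 (SE 0.0994), a 1.34-fold lower level, with an adjusted p of 0.0964 in edgeR and of 0.0477 in DESeq2, so the call depended on the test. Insr, the insulin receptor (mm9 chr8:3150922-3279617, minus strand), was 67.4 and 68.3 CPM in control against 60.6 and 67.3 CPM in Isl1_KO (log2 fold change -0.09, SE 0.0846, adjusted p = 0.585). Both Isl1_KO libraries were lower on this scale, the second by 0.01 (log2), whereas in RPKM the groups overlapped, at 4.06 and 4.11 against 3.64 and 4.21. The ratio of Igf1r to Insr per transcript length was 4.24 and 4.21 in control and 3.82 and 2.89 in Isl1_KO.

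Irs1, the adaptor that couples both receptors to PI3-kinase (mm9 chr1:82229676-82287991, minus strand), was 47.7 and 45.4 CPM in control and 41.2 and 48.7 CPM in Isl1_KO. The Isl1_KO libraries stood on opposite sides of control, and the fitted difference was small beside its error (log2 fold change -0.05, SE 0.115, adjusted p = 0.824). An exon of Irs1 overlaps one of Gm9747 on the opposite strand, and since reads were counted on both strands together its level is less certain.

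Igfbp5, a secreted binding protein that also attaches to the extracellular matrix, gave 6441 and 6608 counts in control against 2913 and 1954 counts in Isl1_KO. This corresponded to 731 and 723 CPM against 224 and 170 CPM, with means of 727 ± 5.73 and 197 ± 38.5 CPM (SD, n = 2 each). The groups were far apart, with both Isl1_KO libraries low and the second lower than the first. The log2 fold change was -1.89 (SE 0.142, adjusted p = 0.00825), and DESeq2 gave -1.88 with an adjusted p of 1.4e-29. Igfbp5 was thus 1 of 9 members tested that was called, where 2.45% of all tested genes were called and 1.94% were called lower. The call needed both control libraries, as the adjusted p was 0.0995 without control 1 and 0.0763 without control 2, at log2 fold changes of -1.88 and -1.89. Over all genes, 27 or 29 of the 311 calls remained without control 1 or control 2. In a bulk sample fewer cells of a type and less RNA per cell cannot be told apart.

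Markers of several cell types were measured beside this fall. For comparison, 29.0% of all tested genes had both Isl1_KO libraries below both control libraries. An unadjusted p under 0.05 was found for 23.3% of all tested genes. Of 7 cardiomyocyte markers, 7 were called lower by edgeR. Their summed level was 1727 and 1800 CPM in control and 95.5 and 51.7 CPM in Isl1_KO. Ttn, the sarcomere protein titin, was the highest of them, at 386 and 454 CPM against 3.54 and 2.95 CPM. Of 8 cardiac progenitor markers, Isl1 and Nkx2-5 among them, 5 were called lower by edgeR and 7 were called by DESeq2. In 8 of 8 both Isl1_KO libraries were below both control libraries with an unadjusted p under 0.05. Their sum was 1008 and 1007 CPM against 512 and 431 CPM. Pdgfra, a mesodermal receptor and the highest of that list, was 302 and 289 CPM against 205 and 149 CPM. Fibroblast markers summed to 2186 and 2134 CPM in control and to 1369 and 499 CPM in Isl1_KO, with 0 of 7 called by edgeR, 4 of 7 at an unadjusted p under 0.05 and 1 called by DESeq2. In 6 of these 7 both Isl1_KO libraries were below both control libraries. Col1a1, a collagen gene and the highest of them, was 925 and 910 CPM in control and 603 and 328 CPM in Isl1_KO. No marker on these lists was at 0 in all libraries, and their part in the level of Igfbp5 was not tested.

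Igfbp2, the convergent neighbour and an inhibitor of IGF action in many settings, was 88.2 and 87.0 CPM in control against 99.8 and 95.3 CPM in Isl1_KO. It was the member with both Isl1_KO libraries above both control libraries, by 0.19 and 0.12 on the log2 scale, and the test did not call it (log2 fold change 0.16, SE 0.0663, adjusted p = 0.239). The ratio of Igfbp5 to Igfbp2 per transcript length was 1.87 and 1.88 in control and 0.507 and 0.402 in Isl1_KO, so that the order of these neighbours was exchanged in both Isl1_KO libraries.

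Igfbp4, which inhibits IGF action until pappalysin cleaves it (mm9 chr11:98902558-98913969, plus strand), was the member with the highest level per transcript length. It was 616 and 623 CPM in control but 773 and 451 CPM in Isl1_KO. The Isl1_KO libraries differed 1.71-fold from each other, on opposite sides of control, and the fitted log2 fold change of -0.02 (SE 0.247, adjusted p = 0.977) averaged a library 0.32 above and a library 0.46 below control. Without Isl1_KO 2 the log2 fold change was 0.32. A difference as large between the Isl1_KO libraries was seen in 8.98% of tested genes.

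Igfbp3, the main carrier of IGFs in serum (mm9 chr11:7106089-7113926, minus strand), showed the widest split. It was 37.5 and 34.0 CPM in control, 19.2 CPM in Isl1_KO 1 and 58.6 CPM in Isl1_KO 2, a 3.05-fold difference between the Isl1_KO libraries that 1.64% of tested genes reached. The log2 fold change over both was 0.12 (SE 0.500, adjusted p = 0.914), and it was -0.89 without Isl1_KO 2. Of the members, 2 differed at least 1.5-fold between the Isl1_KO libraries (Igfbp3 and Igfbp4), against 14.3% of all tested genes, and they did so in opposite directions.

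Other lists also separated the Isl1_KO libraries. Smooth muscle markers, 5 genes of which 0 were called by edgeR or DESeq2 and 0 had an unadjusted p under 0.05, summed to 2519 and 2526 CPM in control and to 2173 and 744 CPM in Isl1_KO. Acta2, smooth muscle actin and the highest of these, was 1638 and 1636 CPM in control, 1137 CPM in Isl1_KO 1 and 276 CPM in Isl1_KO 2. Blood markers, with Hbb-bh1 (embryonic globin) highest, summed to 410 and 418 CPM against 246 and 93.0 CPM. The lower sum lay in the globin genes Hbb-bh1 and Hba-x, both below control in both Isl1_KO libraries. Gata1 (log2 fold change 0.85), Gfi1b (0.90) and Itga2b (0.75), genes of blood progenitors and the erythroid and megakaryocyte lineages, were above control in both. Of the 6 tested, 0 were called by edgeR or DESeq2, and 4 had an unadjusted p under 0.05, these 3 with positive log2 fold changes and Hbb-bh1 with a negative one (-1.51). Endothelial markers, with the VEGF receptor gene Kdr highest, summed to 388 and 389 CPM against 345 and 378 CPM. Much of that sum was Kdr, at 217 and 214 CPM in control and 186 and 278 CPM in Isl1_KO. In 4 of the 7 genes both Isl1_KO libraries were below both control libraries, and in 1 both were above. Emcn, 1 of these 4, had 0 counts in both Isl1_KO libraries. Of the 7, edgeR called 0, DESeq2 called 1, and 3 had an unadjusted p under 0.05. Endoderm markers, led by Cdh1, lay between 223 and 243 CPM in sum, and pluripotent cell markers, led by Klf4, between 56.7 and 70.5 CPM. In both lists 0 genes were called by edgeR or DESeq2 and 0 had an unadjusted p under 0.05. These sums were mostly Cdh1 and Klf4, and they hid genes that separated the Isl1_KO libraries. Ttr was 30.3 and 31.1 CPM in control against 31.2 and 8.85 CPM in Isl1_KO, and Afp was 5.56 and 7.22 against 4.996 and 1.56 CPM. In the other direction, Pou5f1 was 5.45 and 5.91 CPM in control against 5.996 and 14.7 CPM in Isl1_KO. Nanog was 1.93 and 2.41 against 1.999 and 4.77 CPM. Fibroblast and smooth muscle sums were thus lower in Isl1_KO 2 than in Isl1_KO 1, as Igfbp4 was, while Igfbp3 went the other way. Whether the marker levels had a part in either binding protein was not tested.

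**Figure D2:**
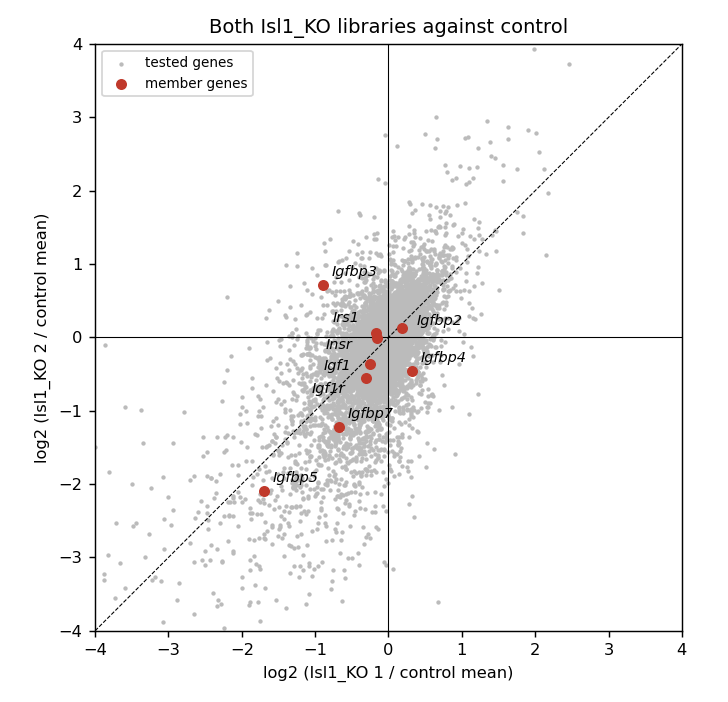
Log2 ratio of each Isl1_KO library to the control mean, Isl1_KO 1 on the horizontal and Isl1_KO 2 on the vertical axis, for tested genes (grey) and members (red), with a dashed line of equality. Igfbp5 lies near the line at -1.70 and -2.10, while Igfbp3 (-0.90 and 0.71) and Igfbp4 (0.32 and -0.46) lie in opposite corners, while 68 tested genes beyond the axes and 27 at 0 in an Isl1_KO library are not drawn.

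Igfbp7, which binds IGFs weakly and is secreted by vascular cells (mm9 chr5:77778265-77837070, minus strand), was near the low end of detection. Control gave 33 and 51 counts and Isl1_KO gave 38 and 23 counts, or 3.75 and 5.58 CPM against 2.92 and 2.00 CPM. The groups did not overlap, but the log2 fold change of -0.91 (SE 0.330) had an adjusted p of 0.191. Exons of Polr2b and of AC141469.5 overlap those of Igfbp7 on the opposite strand, so part of these counts could be theirs. Igfbp6, which prefers IGF2 to IGF1 (mm9 chr15:101974793-101979942, plus strand), gave 8 and 5 counts in control against 4 and 4 counts in Isl1_KO and did not pass the filter on low counts. Its 95% Poisson intervals, which cover counting error only, were 0.392 to 1.79 and 0.178 to 1.28 CPM in control and 0.0838 to 0.787 and 0.0946 to 0.889 CPM in Isl1_KO. They overlapped, and a difference in Igfbp6 was not detectable at this depth.

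Summed over the 6 binding protein members, the level per transcript length was 287.69 and 288.18 RPKM in control, 280.93 RPKM in Isl1_KO 1 and 202.72 RPKM in Isl1_KO 2. The sum was thus near control in the first Isl1_KO library and lower in the second, but its make-up was altered in both. Igfbp5 made up 24.5% and 24.2% of the sum in control and 7.66% and 8.37% in Isl1_KO. Igfbp4 made up 58.6% and 59.1% in control and 75.1% and 63.3% in Isl1_KO, and Igfbp2 made up 13.1% and 12.9% against 15.1% and 20.8%. For these 3 transcripts the groups did not overlap in share. Shares of a sum are tied, so a lower share of Igfbp5 must be matched by higher shares elsewhere. The level of Igfbp4 itself was 168.6 and 170.38 RPKM in control, 210.88 RPKM in Isl1_KO 1 and 128.23 RPKM in Isl1_KO 2. Its share in Isl1_KO 2 was thus above control although its level was below. Igfbp3 made up 3.02% and 2.74% in control, 1.58% in Isl1_KO 1 and 6.95% in Isl1_KO 2, and Igfbp6 and Igfbp7 each stayed under 1% in every library. Their groups did not overlap in share either, on low counts. Igfbp6 made up 0.139% and 0.0833% in control against 0.0463% and 0.0789% in Isl1_KO. Igfbp7 made up 0.660% and 0.982% against 0.527% and 0.518%. These are shares of messenger RNA among the members and say nothing of secreted protein.

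**Figure D3:**
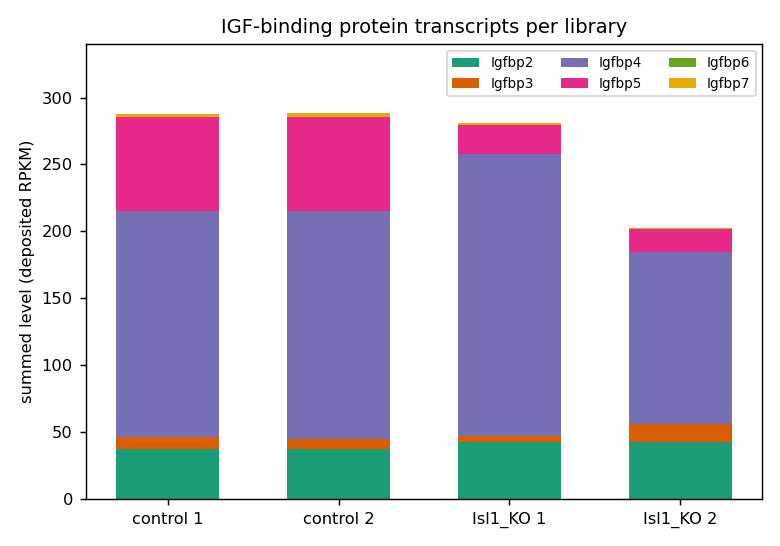
Stacked bars of the deposited RPKM of the 6 binding protein members in each library, from a baseline of 0. The bars of control 1, control 2 and Isl1_KO 1 are of similar height (287.69, 288.18 and 280.93 RPKM), Isl1_KO 2 is shorter (202.72 RPKM), and the Igfbp5 part is narrower in both Isl1_KO bars.

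Across the members, 9 passed the filter on low counts and 10 were measured. The median log2 fold change of the 9 was -0.09, against -0.0027 over all tested genes, with 7 negative and 2 positive values. In 6 of the 9 the groups did not overlap (5 lower and 1 higher in Isl1_KO). Among all tested genes 58.1% did not overlap (29.0% lower and 29.1% higher). Igf1 was among the 5 lower only with some of its entries, the one kept included. In 3 of the 9 the Isl1_KO libraries stood on opposite sides of control, against 16.6% of all. An unadjusted p under 0.05 was found for 3 of 9 (Igf1r, Igfbp5 and Igfbp7), against 23.3% of all. DESeq2 called 2 members after adjustment (Igf1r and Igfbp5), against 3.58% of the genes it was run on. By the criteria used in the study, an absolute log2 fold change over 0.58 with an unadjusted DESeq2 p under 0.05, 1 member was selected (Igfbp5), against 5.89% of those genes.

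With each Isl1_KO library set alone against both control libraries, and assumed to vary as the control pair did, 5 members were called in each case. For Isl1_KO 1 these were Igf1r, Igfbp2, Igfbp3, Igfbp4 and Igfbp5, where 32.5% of tested genes were called. For Isl1_KO 2 they were Igf1r, Igfbp3, Igfbp4, Igfbp5 and Igfbp7, where 49.2% were called. Of the members called in both, Igf1r and Igfbp5 were lower each time, and Igfbp3 and Igfbp4 had opposite signs. Both comparisons share the control libraries.

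**Figure D4:**
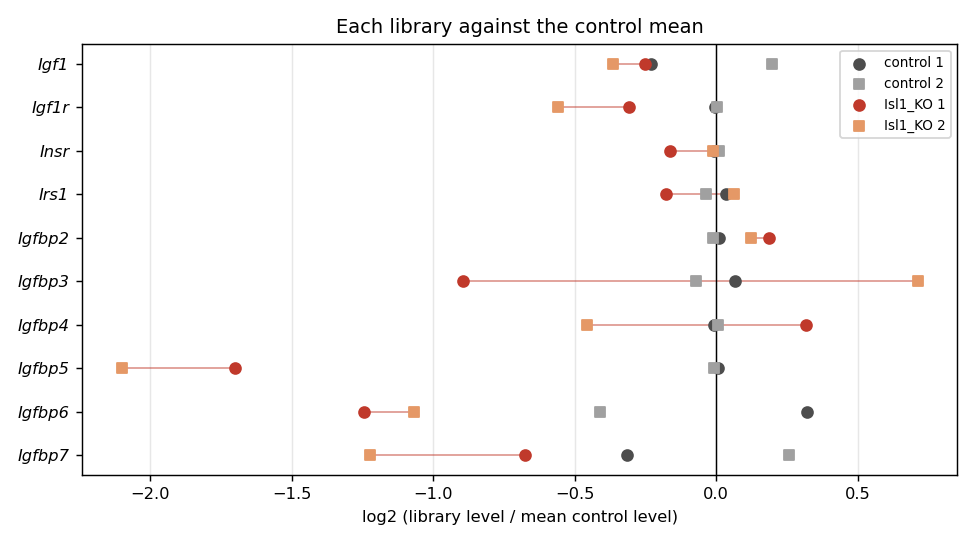
Log2 ratio of each library to the control mean for the 10 members, with 1 point per library and a line joining the Isl1_KO pair. Igfbp5 is low in both (-1.70 and -2.10), Igf1r less so (-0.31 and -0.56), and the points of Igfbp3 and Igfbp4 lie on either side of 0.

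A list of 47 other genes of the IGF pathway was examined for context, and 41 of them were tested. Of these 41, edgeR called 1 lower and 0 higher, where 2.45% of all tested genes were called. An unadjusted p under 0.05 was found for 12, against 23.3% of all. Log2 fold changes were negative for 26 and positive for 15, with a median of -0.05. DESeq2 called 2 (Igfbpl1 and Grb10), against 3.58% of the genes it was run on. The gene called lower by edgeR was Igfbpl1, which encodes a secreted protein related to the binding proteins. Control gave 57 and 77 counts and Isl1_KO gave 19 and 22 counts, or 6.47 and 8.43 CPM against 1.46 and 1.91 CPM (log2 fold change -2.14, SE 0.276, adjusted p = 0.0335). Both Isl1_KO libraries were low and the groups did not overlap, though the adjusted p was 0.281 without control 1 and 0.377 without control 2.

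Igf2 was by far the more abundant IGF transcript, at 1812.85 and 1800.14 RPKM in control and 1505.87 and 1002.30 RPKM in Isl1_KO, beside an Igf1 level of 0.58 to 0.82 RPKM. Its log2 fold change was -0.55 (SE 0.211, adjusted p = 0.210). Igf2r, the receptor that clears IGF2 without signalling as a kinase, was 2389 and 2444 CPM against 1416 and 774 CPM (log2 fold change -1.14, SE 0.279, adjusted p = 0.106). With the replicate block the adjusted p was 0.0398. The replicate numbers did not pair the libraries (r = 0.0144), so that value is not taken as a call. Both Ins1 and Ins2, the mouse insulin genes, had 0 counts in every library, which allows a level of up to 0.231 to 0.341 CPM (3 counts).

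Downstream of the receptors, 21 genes of the PI3-kinase, AKT and mTOR branch were tested. An unadjusted p under 0.05 was found for 3, against 23.3% of all tested genes. Of the 21, edgeR called 0 and DESeq2 called 0. Their log2 fold changes ran from -0.36 to 0.51, and 18 of 21 lay within 0.25 of 0. Of 10 adaptors besides Irs1, edgeR called 0 and DESeq2 called 1 (Grb10), and 3 had an unadjusted p under 0.05, against the same 23.3%. Igf2bp1, an mRNA-binding protein named for its action on Igf2 transcripts, was 570 and 585 CPM in control and 656 and 689 CPM in Isl1_KO. Its groups did not overlap, and the test did not call it (log2 fold change 0.22, SE 0.0671, adjusted p = 0.149).

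**Figure D5:**
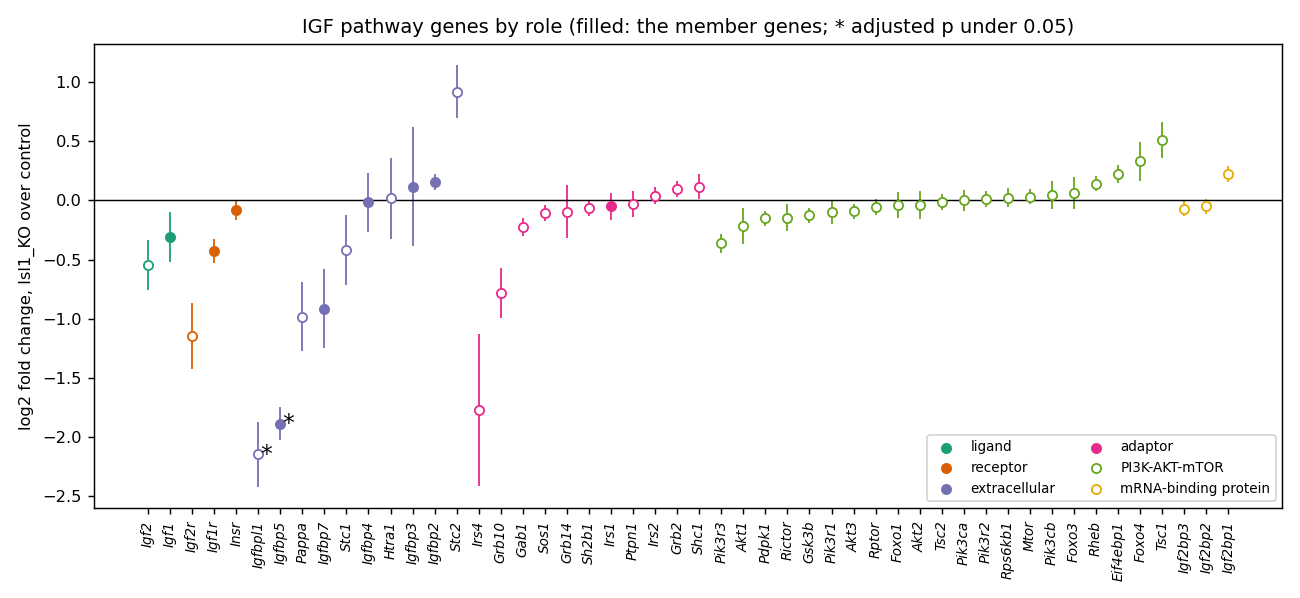
Log2 fold change of Isl1_KO over control with its SE for the tested members (filled) and the other tested pathway genes (open), ordered by role, with a star at an adjusted p under 0.05 in edgeR. Igfbp5 (-1.89) and Igfbpl1 (-2.14) carry a star, and 18 of 21 genes of the PI3-kinase, AKT and mTOR branch lie within 0.25 of 0.

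The genes whose pattern over the 4 libraries was most like that of Igfbp5 were sought among 10883 tested genes whose log2 CPM averaged 2 or more. Likeness was the root mean square difference of log2 CPM values, each gene centred on its own mean. The closest was Epha7, an ephrin receptor gene, at a difference of 0.0171. Epha7 was 33.6 and 32.9 CPM in control and 9.92 and 7.55 CPM in Isl1_KO. Hoxa10, a posterior homeobox gene, was next at 0.0344, with 6.70 and 7.00 CPM against 2.00 and 1.47 CPM. Foxc1, a forkhead factor gene of mesoderm and outflow tract, was the third at 0.0462, with 16.8 and 16.9 CPM against 5.53 and 3.99 CPM. The likeness rests on 4 libraries in 2 groups and is given as a description.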

How the data were processed

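RNA of sorted day 5 cells was sequenced in 2 control and 2 Isl1_KO libraries, grouped by sample title. The series design text speaks of a knockdown, the titles and methods of a knockout. The authors mapped stranded reads to mm9 with STAR and used HOMER to count exonic reads per RefSeq transcript from both strands, without adjustment, in versions not given in the sources used here. Deposited counts are whole reads of a transcript entry, and the authors derived RPKM from them with edgeR. The deposited log2 fold changes, p-values, Wald score and mean count (signal) come from the authors' DESeq2 comparison and were not used.

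The entry with most counts was kept for a symbol, which left 57.0% of the counts of 31507 entries. A floor of 3 counts was 0.341, 0.328, 0.231 and 0.260 CPM. CPM values use TMM effective library sizes, and levels between genes are compared in RPKM. The main test was the two-sided quasi-likelihood test in edgeR 4.0.16 under R 4.3.3, without covariates, after TMM scaling and filterByExpr, adjusted by Benjamini-Hochberg over 12715 genes. DESeq2 1.42.0 was run on 16855 genes. The scripts were tested on simulated data. The alternatives were DESeq2, other scaling factors, other count filters, all or the longest entries, a replicate block and leaving out each library, and a TMM-scaled composition was added after the data were seen. Gene positions are from GENCODE vM1 on NCBIM37, the assembly of mm9, and promoter windows from RefSeq on GRCm38.p6. The control libraries differed by slightly more than counting error (chi-square per degree of freedom 1.14, against 18.7 for Isl1_KO). So small a difference cannot tell separate clones from repeats of the same culture. Each control library was counted because the paper describes different control clones, and every test rests on that description.

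Members, pathway list and marker lists were chosen with earlier results of these data known. Named were the members, pathway genes past the threshold, Igf2, Igf2r and Igf2bp1 in any case, Isl1 and Nkx2-5, the highest gene of each marker list, and the 3 genes most like the called member. Grb10, Gm9747, Polr2b, AC141469.5, Emcn, Hba-x, Gata1, Gfi1b, Itga2b, Ttr, Afp, Pou5f1, Nanog and the insulin genes were named after their values were seen. Of the listed genes, 1 is not reported here.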

Additional observations from a re-analysis of the deposited data

How the results depend on the processing

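The lower level of Igfbp5 kept its direction under every alternative run, at log2 fold changes from -2.10 to -1.70, and its call was lost without either control library. The members called numbered 1, and 2 with DESeq2, and 0 to 5 when a library was left out. Over all genes the 311 calls became 604 with DESeq2 (306 shared), 492 with no filter on low counts (311 shared) and 27 to 6350 when a library was left out. Pathway genes called numbered 1, 2 with DESeq2, 2 with the replicate block, and 0 to 23 when a library was left out. Members meeting the study criteria numbered 1, and 2 in the edgeR fit (Igfbp5 and Igfbp7), and 1 to 2 when a library was left out.

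The replicate numbers did not pair the libraries (r = 0.0144 between deviations of the same number over 12715 genes). With the replicate block 454 genes were called, 294 of them among the 311, Igfbp5 remained called, and the log2 fold change of Igfbp3 changed sign to -0.059. Leaving out a library in turn gave log2 fold changes of -0.17 to 0.065 for Irs1, -0.89 to 0.71 for Igfbp3 and -0.46 to 0.32 for Igfbp4. The sign turned without Isl1_KO 1 for Irs1 and without Isl1_KO 2 for Igfbp3 and Igfbp4. The cause was not tested. Of 99 comparisons of a member with an alternative, 86 kept direction and side of the threshold, 2 lost the call, 7 gained it and 4 turned. Of 99 for the other named genes, 82 kept both, 10 lost the call, 7 gained it and 0 turned, and Nkx2-5, Igfbpl1, Epha7, Hoxa10 and Foxc1 lost theirs when a control library was left out. The binding protein shares moved by less than 1 SD with TMM scaling. A library factor cancels in a share, so this could not have come out otherwise and is no check of them. The pair of libraries per group, 1 clone each, limits every test. Fits that leave out an Isl1_KO library assume that the lone one varies like the control pair, which differed by little more than counting error. For Igfbp6 and Igfbp7 the low counts set the precision.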
